A study of Mus musculus with 30 samples.

Results

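The AP-1 transcription factor genes of the Fos and Jun family were followed in the dorsal hippocampus of mice 1 h after spatial training. The genes were taken by symbol: Fos, Fosb, Fosl1, Fosl2, Jun, Junb, Jund and their dimer partners Atf3, Batf3 and Maff. All 10 have a row among the 24883 rows of the expression table, and 8 of them average at least 1 FPKM, fragments scaled to the length of the transcript and to the mapped fragments of the library. The labels and the methods give 5 conditions of 6 male C57BL/6J mice, 2 to 4 months old, with 1 library per mouse. VEH-HC mice stayed in the home cage, with handling as their only behavioural procedure per the methods. The task of the other conditions includes days of habituation to the arena before the session. Comparisons with VEH-HC therefore cannot tell arena exposure and training apart. VEH-T10 and VEH-T3 mice explored objects for 10 min, a threshold session, or for 3 min, a subthreshold session. All of these vehicle mice, the home cage controls included, received the jetPEI transfection reagent without DNA. Y397F-T10 mice trained for 10 min with a plasmid for CREST in which 1 tyrosine is changed to phenylalanine. Y397D-T3 mice trained for 3 min with a plasmid that puts aspartic acid at the same place. The labels call these forms phospho-null and phospho-mimetic. The paper did not detect phosphorylation of this tyrosine and treats both forms as point mutants alone. CREST is a neuronal subunit of a chromatin remodelling complex, and the plasmids encode an HA-tagged form under a miniCaMK2 promoter, which is active in excitatory neurons. Neither plasmid has a home cage group, and wild-type CREST is not among the conditions, so plasmid and mutation cannot be told apart.

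AP-1 is a dimer of proteins with a basic leucine zipper, a helix that pairs with a partner and grips DNA. Fos proteins bind DNA chiefly as partners of a Jun protein, whereas Jun proteins also pair among themselves. In hippocampal neurons Fos, Fosb and Junb are immediate-early genes, transcribed within minutes of synaptic activity through CREB and serum response factor, and Jund is a constitutive member. Atf3 is induced by cell stress and is also active in glia, Batf3 is best known from dendritic cells, and Maff is a small Maf protein with no activation domain.

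A known route to Fos, Fosb and Junb runs through CREB at the cyclic AMP response element. The promoters of all members were searched for the letters of this element. RefSeq windows of GRCm38.p6, 250 bases before to 50 after each start, were available for 9 of the 10 genes, and Maff has 3 windows. The full element TGACGTCA, on both strands, occurs in 1.79% of 32851 promoter windows, the form TGACNTCA, which contains the full element, in 8.83%, and the half-site TGACG, which the full element also holds, in 20.8%. The matches nearest to the start of the 3 activity-regulated genes, and those of Jun and Maff, are shown because these genes differ below in level and in their response. Capitals mark the match, each on the strand of its gene.
Fos, chr12:85473815-85473837, + strand: tccgcccagTGACGtaggaagtc
Fosb, chr7:19310092-19310114, - strand: agttgcgggTGACGcaagcgcgg
Junb, chr8:84978841-84978863, - strand: tcctgacagTGACGcgagccgcc
Jun, chr4:95052251-95052276, - strand: gcctcggggTGACATCAtgggctatt
Maff, chr15:79347482-79347507, + strand: ctggggcggTGACGTCActgcatgac
Fos carries its half-site 66 bases before the start and another 129 bases before it, Fosb 60 bases, and Junb 106 bases. Atf3 also has a half-site, on the opposite strand, 7 bases before its start. Among the members only Maff holds the full element, 29 bases before 1 of its starts. The TGACATCA variant stands 45 bases before the start of Jun and 45 bases before another start of Maff. The windows of Fosl2, Jund and Batf3 hold none of these forms. For Jund the RefSeq window lies upstream of the GENCODE start, so the bases next to that start were not searched. The AP-1 element TGANTCA, found in 7.81% of all windows, is in none of the members' windows, and other forms of it were not searched. These are matches of letters, and no binding was measured.

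In GENCODE annotation of GRCm38 the genes lie on 8 chromosomes. Fos is at chr12:85473890-85477273 and Fosb at chr7:19302696-19310051. Jun, at chr4:95049034-95052222, Junb, at chr8:84974484-84978718, and Jund, at chr8:70698949-70700616, are each encoded in 1 exon, unlike the Fos genes, whose transcripts have 3 to 5. Atf3 and Batf3 are neighbours on chromosome 1, with 61350 bases between them. Junb overlaps the end of Prdx2 on the opposite strand, a gene at 218 FPKM on average, and Fosl1 overlaps Ccdc85b, at 30.4 FPKM. How strand was treated in counting is not given in the sources used here, so reads in these overlaps cannot be assigned. Gene-level FPKM also does not separate full-length Fosb from its truncated product, delta-FosB.

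The labels name dorsal hippocampus and the methods its CA1 field, and markers of CA1, CA3 and the dentate gyrus were detected. Summed CA1 pyramidal markers had medians between 184 and 206 FPKM in the 5 conditions, summed CA3 markers between 249 and 313, and summed dentate granule markers between 126 and 163, with a range of 69.9 to 198 among trained mice. Relative depth, estimated from the smallest steps between low values, ranged from 0.811 to 1.24 of the median library, while absolute depth is unknown. Markers of tissue next to the hippocampus varied widely, with summed choroid plexus markers of 918 to 5590 FPKM in VEH-HC and 10.3 to 12789 FPKM in trained mice. Some libraries deviated from their condition together over all tested rows. The first mice of VEH-T10, Y397F-T10 and VEH-T3 did so at r = 0.41 to 0.84, the fourth mice of trained conditions at up to 0.558, and mouse 5 of VEH-T10 at 0.521 and 0.517 with the fifth mice of VEH-T3 and Y397D-T3. The 3 first mice also held the highest Fosl2 values, and results that rest on them are given with and without them. Leaving out the fourth mice of the 4 trained conditions instead changed no count of members called. In whole tissue, fewer cells of a type and less RNA per cell cannot be told apart.

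Transcripts of Jun genes far outnumbered those of Fos genes. Averaged over the 30 libraries, Jund stood at 84.9 FPKM, Junb at 47.2 and Jun at 43.4, against 6.98 for Fosl2, 6.5 for Fos and 2.38 for Fosb. Summed Fos genes reached 14.3 ± 1.94 FPKM in the home cage and 17 ± 2.15 after 10 min of training, while summed Jun genes reached 179 ± 10.1 and 169 ± 10.6 (SD, n = 6). Fos genes made up 7.37% ± 0.813 of the summed Fos and Jun transcripts in the home cage. The share was 9.11% ± 1.06 and 8.8% ± 1.83 after 10 min with vehicle and Y397F, and 8.54% ± 1.44 and 7.84% ± 0.382 after 3 min with vehicle and Y397D (SD, n = 6), so the Y397D mean was within 1 SD of the home cage. Without the 3 first mice the VEH-T10, Y397F-T10 and VEH-T3 shares were 8.72% ± 0.502, 8.19% ± 1.17 and 8.13% ± 1.16 (n = 5). Atf3 averaged 2.07 FPKM, Batf3 1.31 and Maff 0.86. Fosl1, which encodes Fra-1, averaged 0.0488 FPKM and is listed at 0 in 11 of the 30 libraries, so no fold change of it is interpreted.

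**Figure D1:**
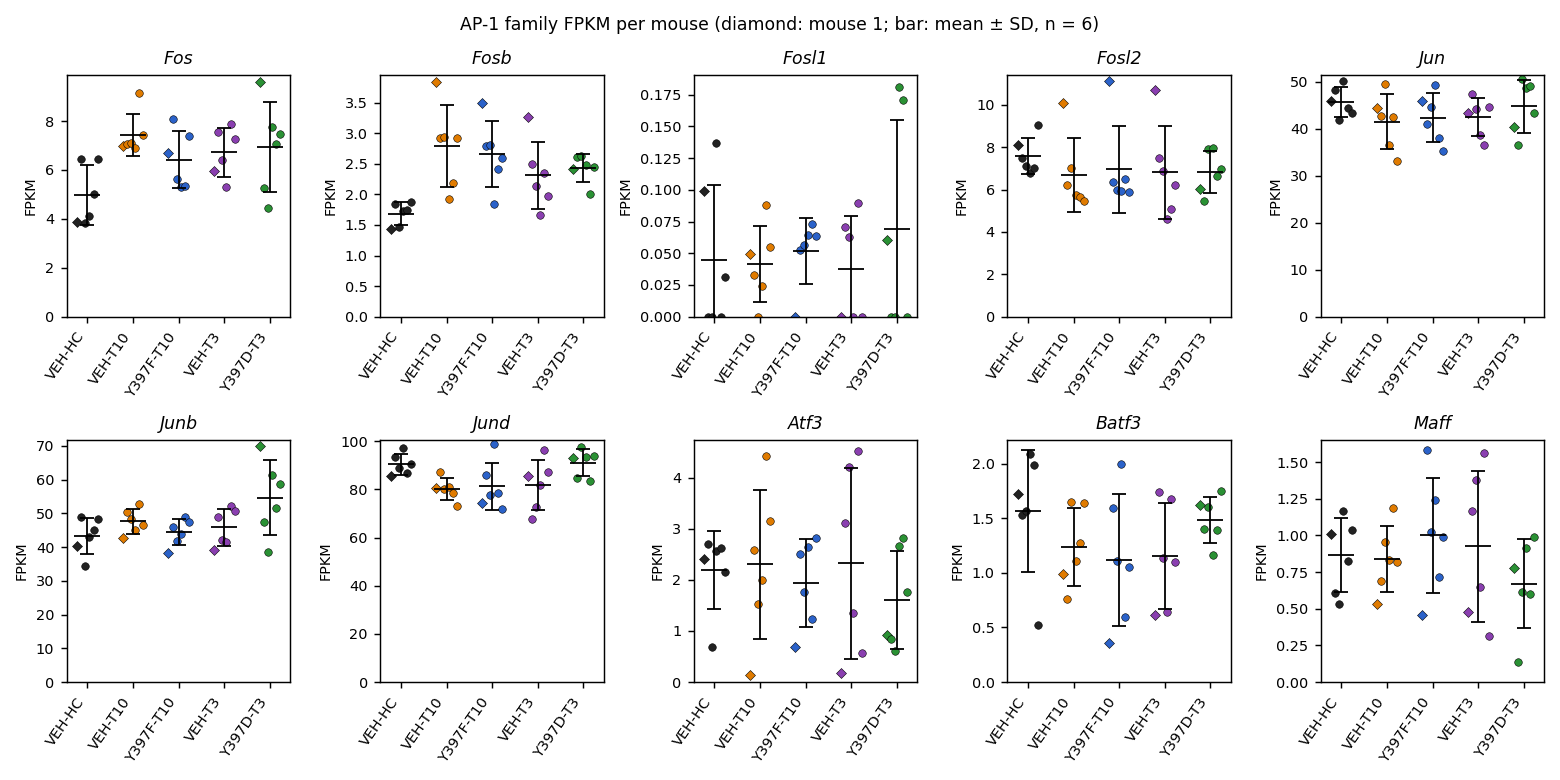
FPKM of each member (vertical axis, from 0) in every mouse of the 5 conditions (horizontal axis), with bars for the mean ± SD of 6 mice and diamonds for the first mouse of each condition. Fosb of VEH-HC lies between 1.44 and 1.88 FPKM, below 22 of the 24 trained mice, and the diamonds of VEH-T10, Y397F-T10 and VEH-T3 are the highest Fosl2 values.

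Members were called in the comparisons of training with the home cage alone, and the members called were Fosb and Fos. Fosb, whose protein dimerises with Jun proteins and whose truncated form accumulates in neurons, was called higher in 3 of the 4 trained conditions. Its lowest, median and highest FPKM were 1.44, 1.73 and 1.88 in the home cage. They were 1.92, 2.92 and 3.84 in VEH-T10. All 6 VEH-T10 mice lay above every home cage mouse. Values were 1.84, 2.69 and 3.5 in Y397F-T10, where 5 of 6 mice lay above the home cage range. In VEH-T3 they were 1.67, 2.25 and 3.27, again with 5 of 6 mice above that range. In Y397D-T3 they were 2.01, 2.46 and 2.63, the tightest of the trained groups, with no overlap with the home cage.

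Tested with limma on log2(FPKM + 1), Fosb rose by 0.48 after 10 min with vehicle (SE 0.111, adjusted p = 0.0319), by 0.44 with Y397F (adjusted p = 0.047) and by 0.35 after 3 min with Y397D (adjusted p = 0.0488). In VEH-T3 the difference was 0.29 (95% interval 0.07 to 0.52) and did not pass, with an adjusted p of 0.114. Adding 1 to FPKM shrinks these values for a low gene, and the ratios of mean FPKM to VEH-HC were 1.66, 1.58, 1.44 and 1.38 in the same order. The 4 comparisons share the VEH-HC mice. Against the average of the 4 trained conditions, the home cage was lower by 0.39 (SE 0.0875, adjusted p = 0.00692), a call kept without any single library. The calls of the separate conditions were fragile. VEH-T10 lost its call without mouse 1, 2, 3 or 5 of VEH-HC or mouse 1, 2, 3 or 6 of VEH-T10, with an adjusted p of up to 0.0947. The Y397F-T10 and Y397D-T3 calls were lost on leaving out any of 21 and 23 single libraries, with an adjusted p of up to 0.114 and 0.0997. Without the 3 first mice together, the fold changes were 0.41 and 0.37 after 10 min with vehicle and Y397F (adjusted p = 0.00958 and 0.0147) and 0.22 and 0.35 after 3 min with vehicle and Y397D (adjusted p = 0.124 and 0.0106).

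Fos, the immediate-early gene used as a mark of active neurons, showed the same order of home cage below training. Its lowest, median and highest FPKM were 3.85, 4.58 and 6.46 in the home cage and 6.89, 7.08 and 9.16 after 10 min of training. The ranges of these groups did not overlap. VEH-T3 mice had 5.32, 6.83 and 7.87 FPKM, Y397F-T10 mice 5.29, 6.18 and 8.09, and Y397D-T3 mice 4.44, 7.26 and 9.61. The Y397D-T3 group was the widest, with a CV of 26.7% against 11.6% in VEH-T10. Across all trained mice, 16 of 24 lay above every home cage mouse and 23 of 24 above the home cage median.

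The average of the trained conditions exceeded the home cage by 0.41 for Fos (SE 0.11, limma adjusted p = 0.0196). This call was lost without mouse 1, 3 or 4 of VEH-HC, with adjusted p values of 0.061 to 0.066. No single condition passed. For Fos the differences were 0.52 (adjusted p = 0.0658) in VEH-T10, 0.40 (adjusted p = 0.0741) in Y397D-T3, 0.39 (adjusted p = 0.0962) in VEH-T3 and 0.32 (adjusted p = 0.23) in Y397F-T10. Leaving out mouse 3 of Y397D-T3, the lowest of its group, brought the VEH-T10 value to an adjusted p of 0.045 and the Y397D-T3 value to 0.50 with an adjusted p of 0.0231. Leaving out mouse 6 of VEH-HC gave Y397D-T3 an adjusted p of 0.0453.

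Over the family, 1 of 10 members was called for VEH-T10, 1 for Y397F-T10, 1 for Y397D-T3 and 0 for VEH-T3, in each case Fosb. Of all 13184 tested rows, 0.819%, 1.13%, 7.07% and 5.17% were called in these comparisons, either direction. For the average of the trained conditions 2 of 10 members were called, Fos and Fosb, against 9.66% of all rows. At an unadjusted limma p under 0.05 the VEH-T3 comparison had 3 members, Fos and Fosb higher and Jund lower, where 7.79% of all rows were higher and 13.8% lower. An exact two-sided permutation test of 6 against 6 mice gave 0.00216, the smallest p this design allows, for Fos and Fosb in VEH-T10 and for Fosb in Y397D-T3. Rows whose groups do not overlap upward made up 0.789% of all rows in VEH-T10 and 2.5% in Y397D-T3. After adjustment over the 70 permutation tests on the members, these 3 values stood at 0.0505 and none of the 70 passed, while 7 were under 0.05 unadjusted.

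**Figure D2:**
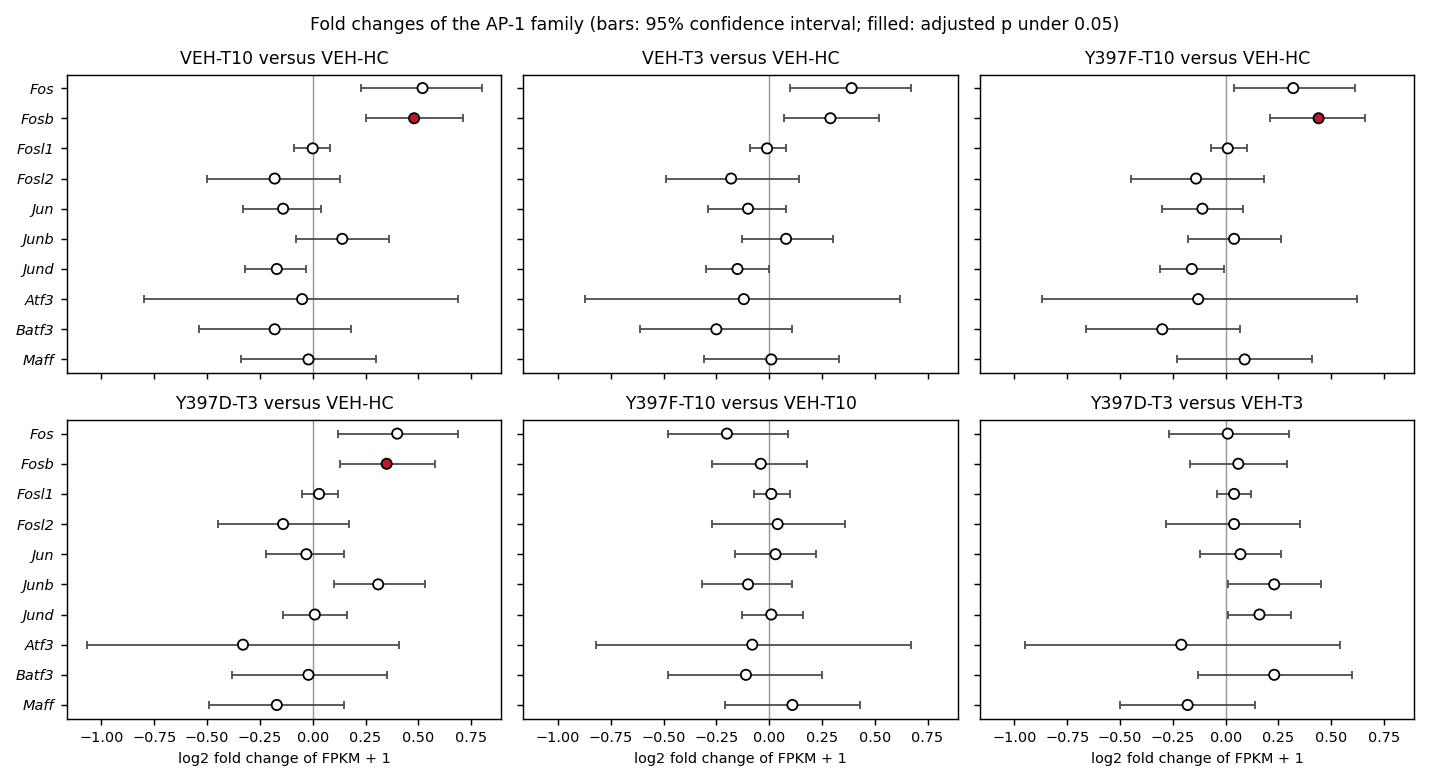
Log2 fold change of FPKM + 1 (horizontal axis) of each member (vertical axis) in 6 comparisons, with limma's 95% confidence intervals and filled points for an adjusted p under 0.05. The filled points are Fosb in VEH-T10 (0.48), Y397F-T10 (0.44) and Y397D-T3 (0.35) against VEH-HC, and both plasmid comparisons hold none.

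Fosl2, which encodes Fra-2, a Fos protein without a strong activation domain, did not share this direction. Its lowest, median and highest FPKM were 6.78, 7.3 and 9.06 in the home cage. After 10 min they were 5.47, 5.98 and 10.1 with vehicle and 5.86, 6.17 and 11.1 with Y397F. After 3 min they were 4.59, 6.54 and 10.7 with vehicle and 5.48, 6.8 and 7.94 with Y397D. The 10.1, 11.1 and 10.7 FPKM were the first mice. Of the 24 trained mice 15 lay below every home cage mouse and 3 above. Averaged over the trained conditions the difference was -0.16 (SE 0.121, adjusted p = 0.437). Without the 3 first mice, a choice made after seeing the data, it was -0.25 (adjusted p = 0.0229), and the VEH-T3 difference was -0.30 (adjusted p = 0.0422), so whether Fosl2 is called turns on these libraries.

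The ratio of Fosb to Fosl2 within a library, a measure chosen after the values were seen and not tested, separated trained from home cage mice. It was 0.177 to 0.255 in the 6 VEH-HC mice, with a mean of 0.223 ± 0.0307 (SD). In the 24 trained mice it was 0.303 or higher. Means were 0.421 ± 0.0719 and 0.391 ± 0.0692 after 10 min with vehicle and Y397F, and 0.35 ± 0.0593 and 0.363 ± 0.0659 after 3 min with vehicle and Y397D (SD, n = 6). The 3 first mice that stand apart in Fosl2 lay in the trained range. All 24 trained mice exceed every home cage mouse for 2 of 13184 rows (0.0152%) when each row is divided by Fosl2, for 925 rows (7.02%) when Fosb is divided by each row, and for 7 rows (0.0531%) as FPKM alone. These shares do not take the choice of this pair of members into account, so they do not measure how unusual the separation is. The ratio of Fos to Fosl2 overlapped, with 0.478 to 0.857 in VEH-HC and 0.558 as the lowest trained value.

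**Figure D3:**
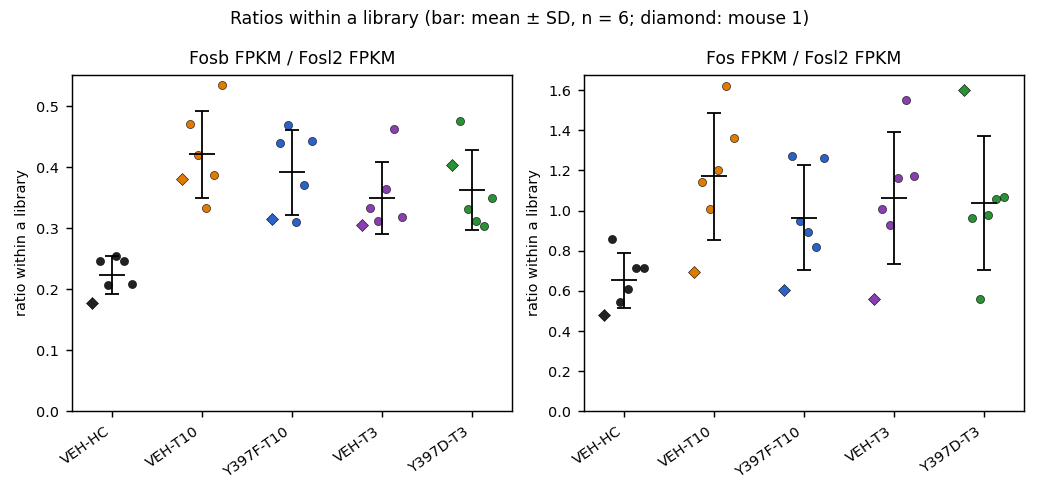
Fosb FPKM and Fos FPKM, each divided by Fosl2 FPKM of the same library (vertical axes, from 0), by condition, with bars for the mean ± SD of 6 mice and diamonds for first mice. The Fosb ratio is at most 0.255 in VEH-HC and at least 0.303 in trained mice, while the Fos ratio overlaps.

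Among the Jun genes, none passed in any comparison at the adjusted threshold. Jund, the most abundant, had a lowest, median and highest FPKM of 85.7, 89.6 and 97 in the home cage and of 73, 80.4 and 87.3 after 10 min with vehicle. With Y397F they were 72, 78.1 and 99, after 3 min with vehicle 67.8, 83.5 and 96.3, and with Y397D 83.6, 93.3 and 97.6. The Y397D mice thus nearly covered the home cage range, while most mice of the other trained groups lay below it. By limma the VEH-T10 difference of Jund was -0.17 (adjusted p = 0.244), that of Y397F-T10 -0.16 (adjusted p = 0.25), that of VEH-T3 -0.15 (adjusted p = 0.219) and that of Y397D-T3 0.01 (adjusted p = 0.943). In VEH-T10, 5 of 6 mice lay below every home cage mouse.

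Jun, the classic partner of Fos, had a mean of 45.7 ± 3.15 FPKM in the home cage. After 10 min it had 41.5 ± 5.84 FPKM with vehicle and 42.4 ± 5.24 with Y397F, and after 3 min 42.5 ± 4.09 with vehicle and 44.8 ± 5.66 with Y397D (SD, n = 6). All groups overlapped. The interval of its difference in VEH-T10 ran from -0.33 to 0.04 on the log2 scale.

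Junb, the inducible Jun gene, was at its highest in Y397D-T3. Its lowest, median and highest FPKM were 34.5, 44 and 48.8 in the home cage. After 10 min they were 42.8, 47.4 and 52.9 with vehicle and 38.3, 45 and 49 with Y397F. After 3 min they were 39.2, 45.6 and 52.2 with vehicle and 38.4, 55.2 and 70 with Y397D. The 3 highest values of the whole series, 70, 61.4 and 58.8 FPKM, were Y397D-T3 mice, and the same condition held 1 of the low ones, mouse 3 at 38.4. Against VEH-HC the Y397D-T3 difference was 0.31 (95% interval 0.10 to 0.53, adjusted p = 0.0682). Without mouse 3 of Y397D-T3 it was 0.41 with an adjusted p of 0.0122.

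The plasmid comparisons asked whether mutant CREST changed the response within a training length, and no member passed in either. Of all rows, 0% were called in Y397F-T10 against VEH-T10 and 0.00758% in Y397D-T3 against VEH-T3. At an unadjusted limma p under 0.05 the members numbered 0 and 2. With Y397F, Fos differed from VEH-T10 by -0.20 (95% interval -0.48 to 0.09, adjusted p = 1) and Fosb by -0.04 (95% interval -0.27 to 0.18), and 4 of 6 Y397F-T10 mice had less Fos than every VEH-T10 mouse. With Y397D, Fos differed from VEH-T3 by 0.01 (95% interval -0.27 to 0.30) and Fosb by 0.06 (95% interval -0.17 to 0.29). The 2 members under 0.05 unadjusted were Junb, with a difference of 0.23 (95% interval 0.01 to 0.45, limma adjusted p = 0.614), and Jund, with 0.16 (95% interval 0.01 to 0.31, limma adjusted p = 0.611). Unadjusted, 5.15% of all rows were higher in that comparison.

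Whether the plasmids differed in effect was tested as the Y397D effect after 3 min minus the Y397F effect after 10 min. Plasmid and training length differ together in this contrast, so it cannot tell them apart. No member passed by limma, 1 had an unadjusted p under 0.05, where 5.65% of all rows were higher, and 0.0303% of all rows were called. For Junb this difference was 0.33 (SE 0.149, limma adjusted p = 0.511). Training length itself, VEH-T10 against VEH-T3, called no member by limma and none at an unadjusted p under 0.05, with 0.0455% of all rows called. Fos stood 0.13 (95% interval -0.15 to 0.42) and Fosb 0.19 (95% interval -0.04 to 0.41) higher after the longer session. Differences of this size between training lengths were within the spread among mice.

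Atf3, Batf3 and Maff varied among mice of a condition far more than between conditions. Atf3 ranged from 0.146 to 4.52 FPKM over the 30 libraries, a 30.9-fold span, against 1.53-fold for Jun. Its lowest, median and highest FPKM were 0.687, 2.48 and 2.7 in the home cage. After 10 min they were 0.146, 2.28 and 4.42 with vehicle and 0.681, 2.13 and 2.82 with Y397F, and after 3 min 0.184, 2.24 and 4.52 with vehicle and 0.604, 1.34 and 2.81 with Y397D. Differences between conditions made up 3.36% of its variance, 15% for Batf3 and 9.78% for Maff, against 47.9% for Fosb and 37% for Fos. Low shares were not particular to these genes, with 6.35% for Fosl2 and 11.3% for Jun. Batf3 had a mean of 1.57 ± 0.56 FPKM in the home cage, 1.24 ± 0.358 and 1.12 ± 0.608 after 10 min with vehicle and Y397F, and 1.15 ± 0.484 and 1.49 ± 0.212 after 3 min with vehicle and Y397D (SD, n = 6). Maff ranged from 0.136 to 1.58 FPKM, and at a mean under 1 FPKM its values are imprecise. None of these 3 genes passed in any comparison.

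Atf3 varied with the microglia markers of a library. Over the 30 libraries its log2 level correlated with the microglia markers Cx3cr1, P2ry12, Tmem119, C1qa and Csf1r at r = 0.91, at 0.93 after removing condition means, and at 0.90 when the 3 first mice were also left out (27 libraries). With astrocyte markers r was 0.85. Summed microglia markers ranged from 141 to 272 FPKM in the home cage, from 116 to 436 and 115 to 308 after 10 min with vehicle and Y397F, and from 96.2 to 334 and 146 to 238 after 3 min with vehicle and Y397D, with 5 of 5 markers detected. The libraries with the least Atf3, mouse 1 of VEH-T10 at 0.146 FPKM and mouse 1 of VEH-T3 at 0.184, had microglia sums of 116 and 96.2. Maff correlated with the same markers at 0.71. Points share library, depth and dissection, so these values describe the libraries, and none of the 5 markers was called in any comparison against the home cage.

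Fosl2 went the other way, with r = -0.77 against oligodendrocyte markers and -0.81 within conditions, or -0.52 without the 3 first mice. Those mice had the lowest oligodendrocyte sums, 1110, 1062 and 1185 FPKM, where the VEH-HC libraries ranged from 1714 to 1968. Fosb correlated with thalamus markers at -0.60, with ependyma markers at -0.57, with the median FPKM of a library at -0.55 and with choroid plexus markers at -0.50. Within conditions these were -0.54, -0.57, -0.53 and -0.31, and within conditions without the 3 first mice -0.10, -0.20, -0.22 and -0.37. Summed thalamus markers were 22.1 to 33.1 FPKM in the home cage, 13.5 to 29 and 10.5 to 26.5 after 10 min with vehicle and Y397F, and 17.9 to 46.1 and 15 to 27.7 after 3 min with vehicle and Y397D, all 5 markers detected. Of these markers 1 was called lower for VEH-T10, 1 for Y397F-T10 and 2 for Y397D-T3, the conditions in which Fosb was called, and 0 for VEH-T3. The choroid plexus markers, 6 of 6 detected, had a median log2 difference between -1.68 and -2.51 in these 3 conditions, with 0 called. CA3 markers went the other way. Their sums were 235 to 272 FPKM in the home cage, 264 to 376 and 256 to 325 after 10 min with vehicle and Y397F, and 237 to 326 and 294 to 346 after 3 min with vehicle and Y397D, where the groups did not overlap. Of the 5 CA3 markers, 1 was called higher for VEH-T10, Y397F-T10 and Y397D-T3 alike, and 0 for VEH-T3. Meningeal fibroblast sums were 30.4 to 41.2 FPKM in the home cage and 12.1 to 25 with Y397D, with 1 of 4 markers called lower there. Fosb had an r of 0.29 with CA3 markers and -0.27 within conditions. The part of these tissue markers in the Fosb result was not tested.

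**Figure D4:**
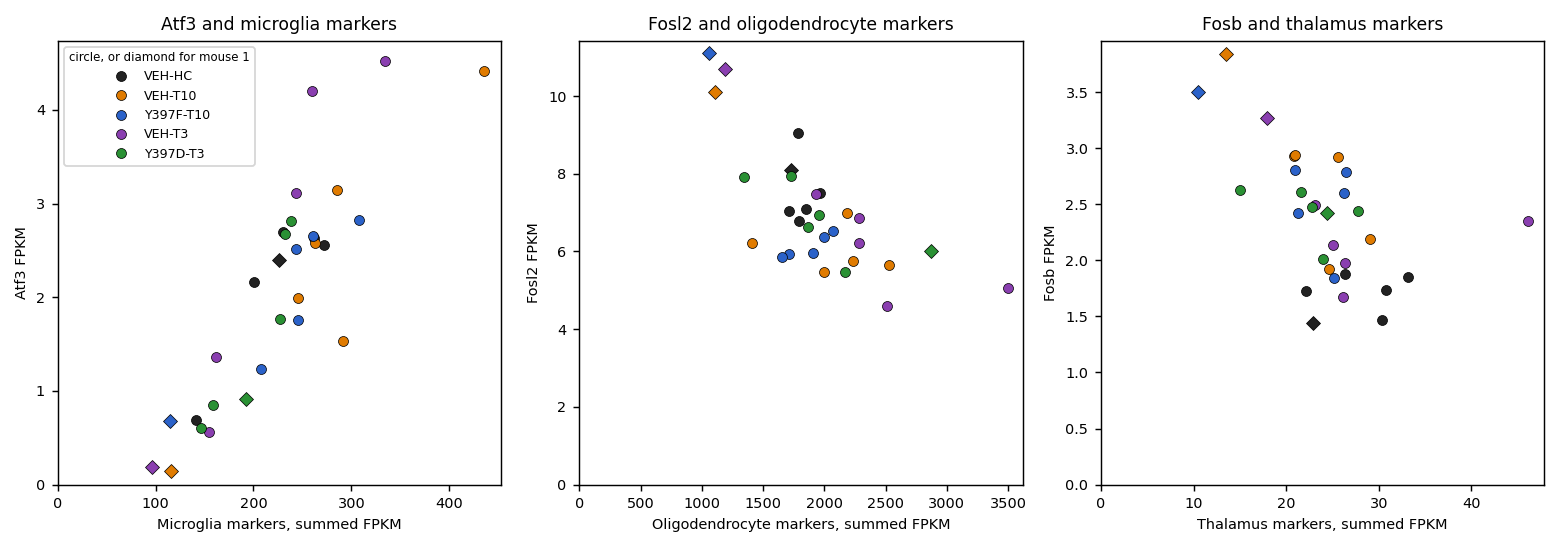
FPKM of Atf3, Fosl2 and Fosb (vertical axes, from 0) against the summed FPKM of microglia, oligodendrocyte and thalamus markers (horizontal axes, from 0), 1 point per library, coloured by condition, with diamonds for first mice. Atf3 climbs with microglia markers (r = 0.91 on the log2 scale), and the 3 first mice at 10.1 to 11.1 FPKM of Fosl2 have the lowest oligodendrocyte sums.

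Members paired off within libraries. Among mice of 1 condition, Fos and Junb deviated together (r = 0.80, or 0.84 without the 3 first mice), as did Atf3 and Maff (0.75 and 0.71). Within conditions Fos and Junb also had an r of 0.46 and 0.63 with endothelium markers and 0.48 and 0.54 with the median FPKM of a library. With CA3 markers r was -0.21 and 0.06. The part of tissue makeup in the pairing of Fos and Junb was not tested. Fos and Fosb, both called with training, were at most weakly related from mouse to mouse, with r = 0.13 within conditions. This r was 0.27 without the 3 first mice, and 0.46 over all 30 libraries with condition means kept. Fosb instead went with Fosl2 at 0.70, a value that fell to 0.32 without the 3 first mice. These values have no p, since the points share library and dissection.

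**Figure D5:**
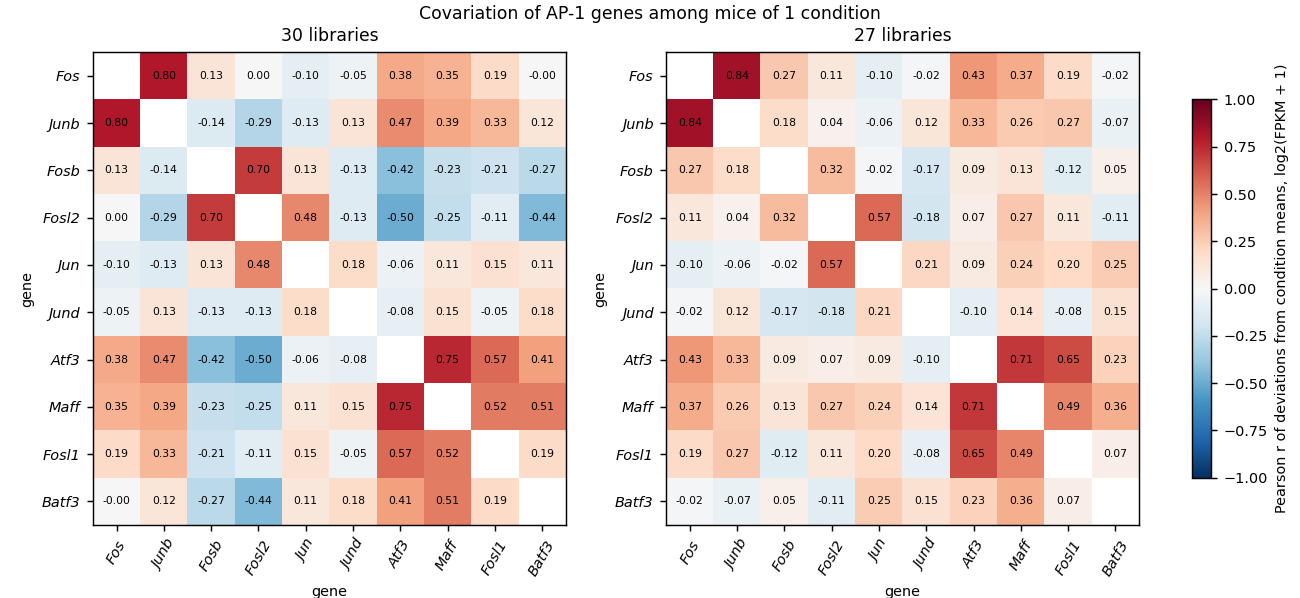
Pearson r between members (both axes) of deviations from condition means on the log2(FPKM + 1) scale, over 30 libraries on the left and 27 on the right, where the first mice of VEH-T10, Y397F-T10 and VEH-T3 are left out. Fos and Junb keep a high r (0.80 and 0.84), whereas Fosb and Fosl2 drop from 0.70 to 0.32.

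The genes most like each inducible member, by r over the 30 libraries, differed. For Fos they were Egr2 (0.78), Egr1 (0.76), Egr4 (0.73), Rbm5 (0.69) and Uimc1 (0.69). The first 3 are zinc finger immediate-early genes. For Junb they were Nr4a1 (0.87), Arc (0.84), Dusp6 (0.77), Rsrp1 (0.77) and Nab2 (0.76), which include a nuclear receptor and a synaptic protein of the immediate-early class. For Fosb they were Rexo4 (0.73), Hsph1 (0.72), C2cd5 (0.70), Gm14305 (0.70) and Ccdc73 (0.69), with no classical immediate-early gene among them. Within conditions these 5 had an r with Fosb of 0.57, 0.42, 0.52, 0.62 and 0.67. The ranking was not repeated without the 3 first mice, so how far the Fosb list rests on them is not known.

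Other immediate-early genes, 20 in number and all tested, gave 2 genes called higher and 0 lower for VEH-T10, 5 and 0 for VEH-T3, 1 and 1 for Y397F-T10, and 9 and 0 for Y397D-T3, with list medians of 0.09, 0.12, 0.01 and 0.25 against -0.03, -0.04, -0.04 and -0.03 over all rows. Rows called higher made up 0.319%, 2.23%, 0.47% and 3.91% of all rows in the same order, and rows called lower 0.501%, 2.94%, 0.66% and 3.16%. For the average of the trained conditions 7 of the 20 were called higher and 2 lower. Of all rows, 3.86% were called higher in that comparison and 9.66% in either direction. Homer1, whose short form dampens glutamate receptor signalling, rose in all 4, by 0.42 (adjusted p = 0.00959), 0.45, 0.51 and 0.44 in the same order. The lower gene with Y397F was Dusp1, a phosphatase of MAP kinases, at -0.44 (adjusted p = 0.0358), named after its value was seen. Egr1 rose in VEH-T3 by 0.61 (adjusted p = 0.0104) and in Y397D-T3 by 0.55. Dusp6, a phosphatase of ERK, rose in VEH-T3 by 0.35 and in Y397D-T3 by 0.53, and Egr2 in Y397D-T3 by 0.52 (adjusted p = 0.034). Neither plasmid comparison called any of the 20 by limma, with 0 and 3 at an unadjusted p under 0.05.

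Regulators upstream of AP-1, such as serum response factor, its ternary complex factors and the CREB coactivators, formed a list of 20. For VEH-T10 0 were higher and 1 lower, for VEH-T3 4 and 1, for Y397F-T10 0 and 1, and for Y397D-T3 6 and 1. Of all rows, 0.319%, 2.23%, 0.47% and 3.91% were called higher in the same order, and 0.501%, 2.94%, 0.66% and 3.16% lower. List medians were 0.04, 0.06, 0.05 and 0.10, against -0.03, -0.04, -0.04 and -0.03 over all rows. Elk4, a ternary complex factor, rose in VEH-T3 by 0.35 (adjusted p = 0.011) and in Y397D-T3 by 0.38 (adjusted p = 0.00278). Its relative Elk1 rose in Y397D-T3 by 0.31. Crebbp, the CREB-binding protein, rose in VEH-T3 by 0.38 (adjusted p = 0.0091) and in Y397D-T3 by 0.32, and Ncoa3, a coactivator, by 0.29 and 0.22. The lower gene was in each case Mapk3, which encodes the kinase ERK1 and is named here after its values were seen. Its log2 differences were -0.24, -0.26, -0.28 and -0.23 for VEH-T10, VEH-T3, Y397F-T10 and Y397D-T3, with an adjusted p of at most 0.0468.

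Of 18 further leucine zipper genes, which include alternative partners of Fos and Jun, 16 were tested, while Batf and Batf2 averaged under 1 FPKM. No gene was lower, and 0, 1, 1 and 2 were higher in the same order of comparisons. Over all rows, 0.319%, 2.23%, 0.47% and 3.91% were called higher, and 0.501%, 2.94%, 0.66% and 3.16% lower. List medians were 0.04, 0.02, 0.01 and -0.03, against -0.03, -0.04, -0.04 and -0.03 over all rows. Counts of 1 or 2 genes give no result about the list. Creb1 rose in VEH-T3 by 0.23 (adjusted p = 0.0171) and Crem, which yields an inducible repressor, in Y397F-T10 by 0.35 (adjusted p = 0.0313). Atf7 rose by 0.17 and Mafg, a small Maf protein like Maff, by 0.25 in Y397D-T3.

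A list of 14 genes described as AP-1 or delta-FosB targets in neurons was chosen with earlier results of these data known. Its counts therefore describe the list and do not test it. Of the 14, 4 were called higher for Y397D-T3, where 3.91% of all rows were, and 0 for each of the other conditions against the home cage. Unadjusted limma p values under 0.05 with a higher level numbered 2, 3 and 3 for VEH-T10, VEH-T3 and Y397F-T10, beside 4.57%, 7.79% and 5.5% of all rows. For the average of the trained conditions 3 of 14 were called higher, against 3.86% of all rows. The 4 called were Bdnf (0.32, adjusted p = 0.0266), Cck (0.32, adjusted p = 0.0235), Gria2 (0.29, adjusted p = 0.0145) and Camk2a (0.24, adjusted p = 0.0173), which encode a growth factor, a neuropeptide, a glutamate receptor subunit and a kinase. The list median in Y397D-T3 was 0.09 against -0.03 over all rows. In VEH-T10, VEH-T3 and Y397F-T10 it was 0.07, 0.00 and 0.00, against -0.03, -0.04 and -0.04. The CA3 marker sums given above were also higher in Y397D-T3, and their part in these neuronal genes was not tested. In Y397D-T3 against VEH-T3, 0 of the 14 were called and 1 had an unadjusted p under 0.05, so a difference between these trained groups was not shown.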

How the data were processed

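RNA from dorsal hippocampus of 30 mice was sequenced by the authors, 6 libraries per condition, and conditions follow the labels. The authors aligned reads to mm10 with TopHat2 2.1.1 and deposited FPKM computed with Cufflinks 2.2.1, per the methods and the submitters' processing notes. The labels place infusion 1 day later than the methods do. NovaSeq and HiSeq instruments were named without assigning libraries, so no batch could be modelled. No column was left out (0 unused).

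Rows with a mean of at least 1 FPKM, 13184 in number, entered limma 3.58.1 (R 4.3.3) as log2(FPKM + 1), with trend, all 30 libraries in 1 fit, and Benjamini-Hochberg adjustment over rows at 0.05. Maff and Fosl1 came from a fit of 18287 rows above 0 in at least 6 libraries. Exact permutation tests were two-sided. The script was tested on simulated data. Relative depth came from 2642 rows of 0.005 to 0.1 mean FPKM, and absolute depth is unknown, so no counting interval is given. Other steps used Python 3.11.15, pandas 2.3.3 and numpy 2.4.6.

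The members, gene lists and marker lists were chosen with earlier results of these data known. All members are named. From each list at most 4 genes are named, those with the largest absolute log2 fold change among genes called in a comparison against VEH-HC, with Mapk3 and Dusp1 added after their values were seen, and the 5 genes with the highest r are named as most like Fos, Fosb and Junb. Alternatives were a pseudocount of 0.1, no filter, median centring, only the compared libraries, the replicate number as a block, unadjusted p, summed rows of a symbol (13128 rows), each library left out, and, added after seeing the data, the first mice of VEH-T10, Y397F-T10 and VEH-T3 left out together, or the fourth mice of the trained conditions.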

Additional observations from a re-analysis of the deposited data

Results flagged for a closer look

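Within a condition of 6 mice, 7 of 50 sets of member values had a highest or lowest mouse far from its nearest neighbour by Dixon's test, whose 95% level flags about 1 in 20 by chance. Fos of VEH-T10 mouse 5 stood at 9.16 FPKM with the next mouse at 7.45. Fosb of Y397D-T3 mouse 5 was low at 2.01, next to 2.42. Fosl2 was high in VEH-T10 mouse 1, at 10.1 against 7, and in Y397F-T10 mouse 1, at 11.1 against 6.52. The same Y397F-T10 mouse was listed at 0 for Fosl1, where the nearest had 0.0529 FPKM. In the home cage, Atf3 of mouse 3 was 0.687 against 2.16 FPKM, and Batf3 of mouse 6 was 0.522 against 1.53.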

How the results depend on the processing

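Counts of members called depended on the processing, and the cause was not tested except where fewer libraries or more rows enter by construction. Against VEH-HC the counts were 1 in VEH-T10, Y397F-T10 and Y397D-T3 and 0 in VEH-T3. Without the filter, Y397F-T10 and Y397D-T3 fell to 0. With libraries centred on their median, VEH-T10 and Y397F-T10 fell to 0 and Y397D-T3 rose to 2, Fos and Junb, with Fosb at an adjusted p of 0.0534. With only the compared libraries VEH-T10 had 2 and Y397F-T10 had 0. At an unadjusted limma p under 0.05 the 4 comparisons each had 3. In Y397D-T3 these were Fos, Fosb and Junb, all higher, and in the others Fos and Fosb higher and Jund lower. Of all rows, 4.57%, 7.79% and 5.5% were higher in VEH-T10, VEH-T3 and Y397F-T10, and 13.8% lower in VEH-T3. Other shares at this threshold are not given. The Y397D-T3 count and lower Jund in VEH-T10 and Y397F-T10 thus have none beside them, and nothing is read from them. Y397D-T3 against VEH-T3 had 2 and the plasmid difference 1, where 5.15% and 5.65% of all rows were higher. Leaving out each library gave 0 to 2 in VEH-T10, from 0 in Y397F-T10, 0 to 2 in Y397D-T3 and from 1 for the trained average. The Y397D-T3 call of Fosb was lost without any mouse of VEH-HC or Y397D-T3, mice 2, 3 and 6 of VEH-T10, or mice 2, 3, 5 and 6 of Y397F-T10 or VEH-T3. The Y397F-T10 call was lost without any mouse of VEH-HC, mice 2, 3 and 6 of VEH-T10, 1, 2, 3, 5 and 6 of Y397F-T10, 3 and 6 of VEH-T3, or 1, 2, 3, 4 and 6 of Y397D-T3. Without the 3 first mice, chosen after seeing the data, VEH-T10 had 2 (Fos and Fosb) and VEH-T3 had 1 (Fosl2). Without the fourth mice of the trained conditions, also chosen after seeing the data, every count stayed as it was. No called member reversed direction in any alternative, and a pseudocount of 0.1 or summed rows left every count within 1.5 times its value.

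Equal replicate numbers belong to different mice. Deviations of same-number libraries correlated over 0.1 in 24 of 60 pairs (median 0.042), and 8 of 30 libraries correlated best with their own number, so the numbers were not taken to pair samples. With the replicate number as a block, VEH-T10 had 2 members (Fos and Fosb) and Y397D-T3 had 2 (Fosb and Junb).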
